A study of Mus musculus with 4 samples.

Results

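The genes described here encode the cyclic AMP pathway and the transcription factors of the CREB families. They were taken by gene symbol from the deposited table: the adenylyl cyclases (Adcy), the phosphodiesterases (Pde with a number and a letter from a to d or none), the subunits of protein kinase A (Prkar, Prkac), the A-kinase anchoring proteins (Akap), the CREB and CREB3 genes, the CRTC coactivators, Crem, Atf1, Rapgef3 and Rapgef4. The rule uses names and no measured value, and it found 60 of the 15713 genes in the table. RNA sequencing was done on the hippocampus of C57BL/6 mice, an inbred strain, at 11 to 12 weeks of age. One group had a developmental exposure to 5000 ppb ATO by its label (2 libraries, ATO replicates 1 and 2), and the control group was untreated (2 libraries, control replicates 1 and 2). The labels do not spell out ATO, and the series title names arsenic exposure of offspring. The sources used here do not give the route and window of exposure, the sex, or whether libraries came from separate litters or from pooled animals, so a p-value measures only the spread between these libraries.

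Cyclic AMP is a small messenger that adenylyl cyclases make from ATP when receptors coupled to the G protein Gs are active, and that receptors coupled to Gi restrain. Phosphodiesterases degrade it. It releases the catalytic subunits of protein kinase A (PKA) from their regulatory subunits, which AKAPs tether at membranes and synapses, and it also opens the exchange factors called Epac. PKA phosphorylates CREB, which binds the cyclic AMP response element (CRE) in DNA and works with coactivators such as the CRTC proteins. In the hippocampus this pathway is known for its part in lasting synaptic plasticity and memory.

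Total counts were 17251032 and 16696546 in ATO and 14832214 and 15078919 in controls, so that 1 count was worth 0.0580 to 0.0674 CPM, the counts scaled to library size. Markers of hippocampal neurons were present: all 10 dentate granule and all 10 CA3 markers and 9 of 10 CA1 markers were in the table. All 8 thalamus and 9 of 10 striatal markers were in it too, so presence alone does not identify the tissue. All 20 choroid plexus markers rose in ATO, and their summed level was 3541 and 4401 CPM in ATO, against 250 and 316 CPM in controls. Ependymal markers rose in 7 of 11. Dentate granule markers rose in 2 of 10, with sums of 770 and 673 CPM in ATO and 621 and 537 CPM in controls. CA1 markers fell in 4 of 9, with sums of 566 and 738 CPM in ATO and 841 and 834 CPM in controls. Interneuron markers fell in 1 of 10, with sums of 1045 and 1122 CPM in ATO and 1186 and 1293 CPM in controls. Of the remaining lists, CA3 markers (10 tested), thalamus markers (8) and microglia markers (10) had 0 calls. Striatal (9 tested) and astrocyte (10) markers had 1 that rose, oligodendrocyte (10) and endothelial or pericyte (10) markers 1 that fell, and oligodendrocyte precursor (6) markers 1 in each direction. Of 10 leptomeningeal or fibroblast markers 9 stood above 0, with a median log2 fold change of 0.70, and 1 of them passed (Igf2). The list's only fallen marker, Dcn, is also one of the 4 CA1 markers that fell. For a gene that falls in tissue RNA, fewer cells of a type and less RNA per cell cannot be told apart. Nor can more cells of a type and more RNA per cell for a gene that rises.

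In ATO hippocampus 2 of the 60 genes rose and 1 fell. Creb3l2, which encodes a membrane-bound transcription factor of the endoplasmic reticulum, rose 1.70-fold. Creb1, which encodes CREB itself, rose 1.35-fold. Creb5, which encodes a CRE-binding protein related to ATF2, fell by 1.29 on the log2 scale, at low counts. No adenylyl cyclase, phosphodiesterase, PKA subunit, AKAP, Epac or CRTC gene passed the threshold, an adjusted p under 0.05 (quasi-likelihood test in edgeR, Benjamini-Hochberg over all 15713 genes). Of all genes tested 3.73% passed, 2.87% higher and 0.859% lower, beside 3 of the 60. At an unadjusted p under 0.05 there were 10 of the 60 genes, or 16.7%, against 18.1% of all genes. The median log2 fold change was 0.03 over the 60 genes and -0.00496 over all genes. The count and the median of the 60 genes thus lay near those of the whole table. The libraries of the groups did not overlap for 29 of the 60 genes, 48.3%, against 48.1% of all genes tested. In 17 of the 60 both ATO libraries were above both controls (background 24.8%) and in 12 below (background 23.4%). All 4 genes of the Creb1, Crem, Atf1 and Creb5 group were among them.

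Each of the 3 calls was lost when 1 library was left out. The adjusted p of Creb3l2 was 0.117 without ATO replicate 2 and 0.164 without control replicate 2. That of Creb1 was 0.218 without ATO replicate 1 and 0.184 without control replicate 2. For Creb5 it was 0.0932 without ATO replicate 1 and 0.263 without control replicate 1. Creb5 also missed the threshold with library size only (0.0552), in limma-voom (0.0681) and in DESeq2 (0.118), whereas Creb1 and Creb3l2 passed in all 3 of these. In the authors' deposited table the adjusted p was 0.0306 for Creb1, 0.0240 for Creb3l2 and 0.0568 for Creb5, and 0 of the 60 genes carried the authors' mark for differential expression, which also asks for an absolute log2 fold change over 1.

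**Figure D1:**
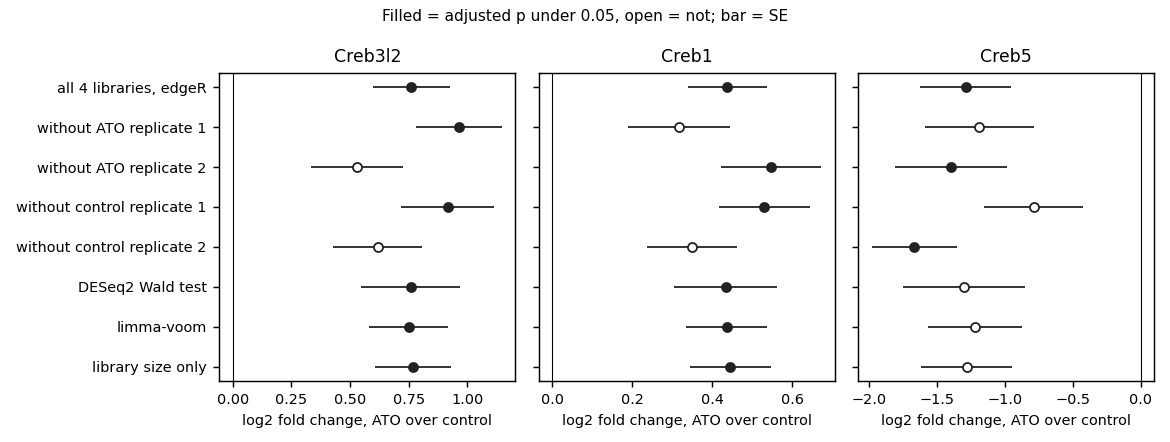
Log2 fold change of ATO over control (x axis, bar = SE) of the 3 genes that passed, with all 4 libraries, with each library left out, and in other tests (y axis). Filled points had an adjusted p under 0.05 and open points did not; each gene has at least 2 open points, and no point crosses 0.

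The DNA before the start sites of these 3 genes shows whether the CRE, the site that CREB binds, is written there. The full CRE has the letters TGACGTCA, which read the same on both strands, and each full site holds the short site TGACG on both strands (CGTCA on the other). RefSeq promoters (GRCm38.p6, 250 bases before to 50 after a start) were found for 50 of the 60 genes, as 92 promoters. In the sequences below, 5′ to 3′ on the gene's strand, capitals mark full and short sites, and for Creb1, Creb3l2 and Creb5 letters inside the annotated gene are left out. Creb1 lies at chr1:64532645-64604548 (plus strand), and the bases shown before it are chr1:64532554-64532644; Creb3l2 is shown at chr6:37442149-37442398 (minus strand) and Creb5 at chr6:53287053-53287269 (plus strand). Prkar1a, the PKA regulatory subunit gene, is the other gene with a full site and is shown as a window at chr11:109650890-109650917 (plus strand). That window lies inside the annotated gene (chr11:109649405-109669656), before 1 of its inner start sites.
Creb1: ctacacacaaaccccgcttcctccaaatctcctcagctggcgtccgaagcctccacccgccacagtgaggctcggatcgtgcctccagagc
Creb3l2: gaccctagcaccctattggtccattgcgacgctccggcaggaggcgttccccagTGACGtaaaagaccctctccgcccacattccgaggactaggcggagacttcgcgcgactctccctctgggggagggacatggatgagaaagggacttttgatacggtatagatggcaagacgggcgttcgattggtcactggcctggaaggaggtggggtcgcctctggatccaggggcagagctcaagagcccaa
Creb5: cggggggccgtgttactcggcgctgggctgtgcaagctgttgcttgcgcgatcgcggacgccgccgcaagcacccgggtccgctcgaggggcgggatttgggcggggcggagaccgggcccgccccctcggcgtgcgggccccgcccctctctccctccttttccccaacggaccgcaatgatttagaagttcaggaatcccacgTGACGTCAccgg
Prkar1a: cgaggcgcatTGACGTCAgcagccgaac

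The full CRE stood in 3 of the 92 promoters, or 3.26%, against 1.79% of all 32851 promoters of the RefSeq table. These were 1 promoter of Creb5 and 2 overlapping promoters of Prkar1a, which has 6 start sites there and shares 1 site between those 2. Counted per gene, 2 of the 50 genes held it, against 2.03% of the 27025 genes of the table. A short site stood in 22.8% of the 92 promoters and in 20.8% of all promoters, and in 19 of the 50 genes against 23.0% of all genes, which have fewer promoters per gene. Creb5 has 2 start sites in that table, and the one shown held the full site. Creb3l2 held 1 short site, and the 300 bases around the Creb1 start held none, which says only that these letters are not in that window. Of the genes with a full site, Creb5 fell and Prkar1a did not pass.

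Receptors and G proteins stand above the cyclases. Of 19 tested genes of Gs-coupled receptors 0 rose and 1 fell, the parathyroid hormone receptor gene Pth1r, at 3.43 ± 0.508 CPM in ATO and 6.33 ± 0.0345 CPM in controls (normalised CPM, mean ± SD, n = 2 each). Its log2 fold change was -0.88 ± 0.23 (SE, adjusted p = 0.0496), and leaving out any 1 library ended the call (adjusted p from 0.0643 to 0.212), as did DESeq2, limma-voom and library size only. The PACAP receptor gene Adcyap1r1 (0.22 ± 0.07, adjusted p = 0.113) and the serotonin receptor gene Htr4 (0.46 ± 0.16, adjusted p = 0.132) did not pass. Of 26 tested Gi-coupled receptor genes 1 rose and 0 fell. It was the serotonin receptor gene Htr1a, at 44.8 ± 3.46 CPM in ATO and 33.8 ± 3.85 CPM in controls, with a log2 fold change of 0.40 ± 0.11 and an adjusted p of 0.0496. Its adjusted p was 0.220 without ATO replicate 2 and 0.265 without control replicate 2, and it also missed the threshold in DESeq2, in limma-voom and with library size only. The glutamate receptor gene Grm2 stood at 0.32 ± 0.10 (adjusted p = 0.0799) and the opioid receptor gene Oprk1 at -0.99 ± 0.38 (adjusted p = 0.179).

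Of 7 alpha subunits of G proteins that act on adenylyl cyclase 1 rose, Gnai3 of the inhibitory class. It had 45.2 ± 3.18 CPM in ATO and 33.6 ± 2.14 CPM in controls, a log2 fold change of 0.43 ± 0.10 (adjusted p = 0.0298). The adjusted p was 0.156 without ATO replicate 2, 0.165 without control replicate 2 and 0.0793 in DESeq2. Gnal, the olfactory type stimulatory subunit (0.17 ± 0.08, adjusted p = 0.301), and Gnai1 (-0.09 ± 0.08, adjusted p = 0.598) did not pass. The median log2 fold change was 0.07 over the Gs-coupled receptors, 0.11 over the Gi-coupled receptors and 0.03 over the G proteins.

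Among the 10 adenylyl cyclase genes 0 passed and the log2 fold changes had a median of 0.02. Adcy1, a calmodulin-stimulated cyclase of neurons, had the highest level per length, with 63.97 and 58.9 FPKM in ATO and 65.58 and 54.21 FPKM in controls (the authors' depth- and length-scaled values, 1 per library). It made up 42.1% to 48.4% of the summed FPKM of the cyclases in the 4 libraries. The groups overlapped, and its log2 fold change was 0.03 with a 95% interval from -0.17 to 0.23. Next by mean FPKM came Adcy2 at 29.3, a cyclase that G protein beta-gamma subunits stimulate, Adcy5 at 15.9, which Gi and calcium inhibit, and its close relative Adcy6 at 8.74. Adcy9, the cyclase least sensitive to forskolin, stood at 8.49 and Adcy3, known from olfactory cilia, at 5.93. The range of Adcy6 over the 4 libraries (8.57 to 9.15 FPKM) overlapped that of Adcy9 (8.39 to 8.67 FPKM), so the order of these neighbours is within their spread. The log2 fold changes of Adcy2, Adcy5, Adcy6, Adcy9 and Adcy3 ran from -0.02 for Adcy2 to 0.04 for Adcy6.

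The lowest cyclases were Adcy8 at 1.74 FPKM, Adcy4 at 1.04, Adcy7 at 0.820 and the soluble cyclase Adcy10 at 0.130, and the last 3 had log2 fold changes of -0.02 ± 0.25, 0.15 ± 0.25 and 0.21 ± 0.45 (SE). Adcy8, the other calmodulin-stimulated cyclase, had 11.48 and 12.46 CPM in ATO, against 12.55 and 20.4 CPM in controls. The lower control lay just above the higher ATO library, and control replicate 2 stood apart. Its log2 fold change was -0.46 ± 0.19 (SE, adjusted p = 0.218), and without control replicate 2 it was -0.07, while without control replicate 1 it was -0.77 with an adjusted p of 0.0275.

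The 20 phosphodiesterase genes had a median of 0.06 on the log2 scale, and 0 passed. The calmodulin-dependent enzymes Pde1a and Pde1b had the highest levels per length, with means of 31.4 and 22.4 FPKM, followed by Pde6d at 17.9, which encodes a prenyl-binding chaperone named after its copurification with the photoreceptor enzyme. Pde1a had 30.62 and 31.55 FPKM in ATO and 31.0 and 32.42 FPKM in controls, and its 95% interval of the log2 fold change ran from -0.19 to 0.12. The cyclic AMP-specific enzymes of the Pde4, Pde7 and Pde8 families were led by Pde4a at 15.1 FPKM and Pde8b at 10.7 FPKM. The log2 fold change was -0.10 for Pde1b, 0.09 for Pde6d, 0.08 for Pde4a and 0.05 for Pde8b. Pde4b, Pde7a, Pde8a, Pde7b, Pde4d and Pde4c lay between 5.64 and 0.443 FPKM. Among them Pde4c (0.36 ± 0.30), Pde7b (0.25 ± 0.14) and Pde7a (0.22 ± 0.11) had the highest log2 fold changes and Pde8a (-0.16 ± 0.13) the lowest.

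Of the phosphodiesterases, Pde3a alone had an unadjusted p under 0.05. This enzyme, which cyclic GMP inhibits, had 8.78 and 6.74 CPM in ATO, against 5.90 and 4.44 CPM in controls. Both ATO libraries lay above both controls, by less than the gap between the ATO libraries. The log2 fold change was 0.59 ± 0.22 (SE, adjusted p = 0.176). The remaining genes with less than 6 FPKM were Pde10a, known from striatal neurons, Pde9a and Pde5a, which prefer cyclic GMP, Pde2a, which cyclic GMP stimulates, Pde1c, Pde3b, Pde11a and Pde12. Their log2 fold changes ran from -0.31 for Pde9a to 0.14 for Pde5a. Pde12 acts on oligoadenylates in mitochondria and not on cyclic nucleotides. Pde2a shared 3955 of its 6149 exonic bases with the predicted gene Gm45837 on the same strand, so its level of 2.42 FPKM may miss reads that both genes could claim.

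**Figure D2:**
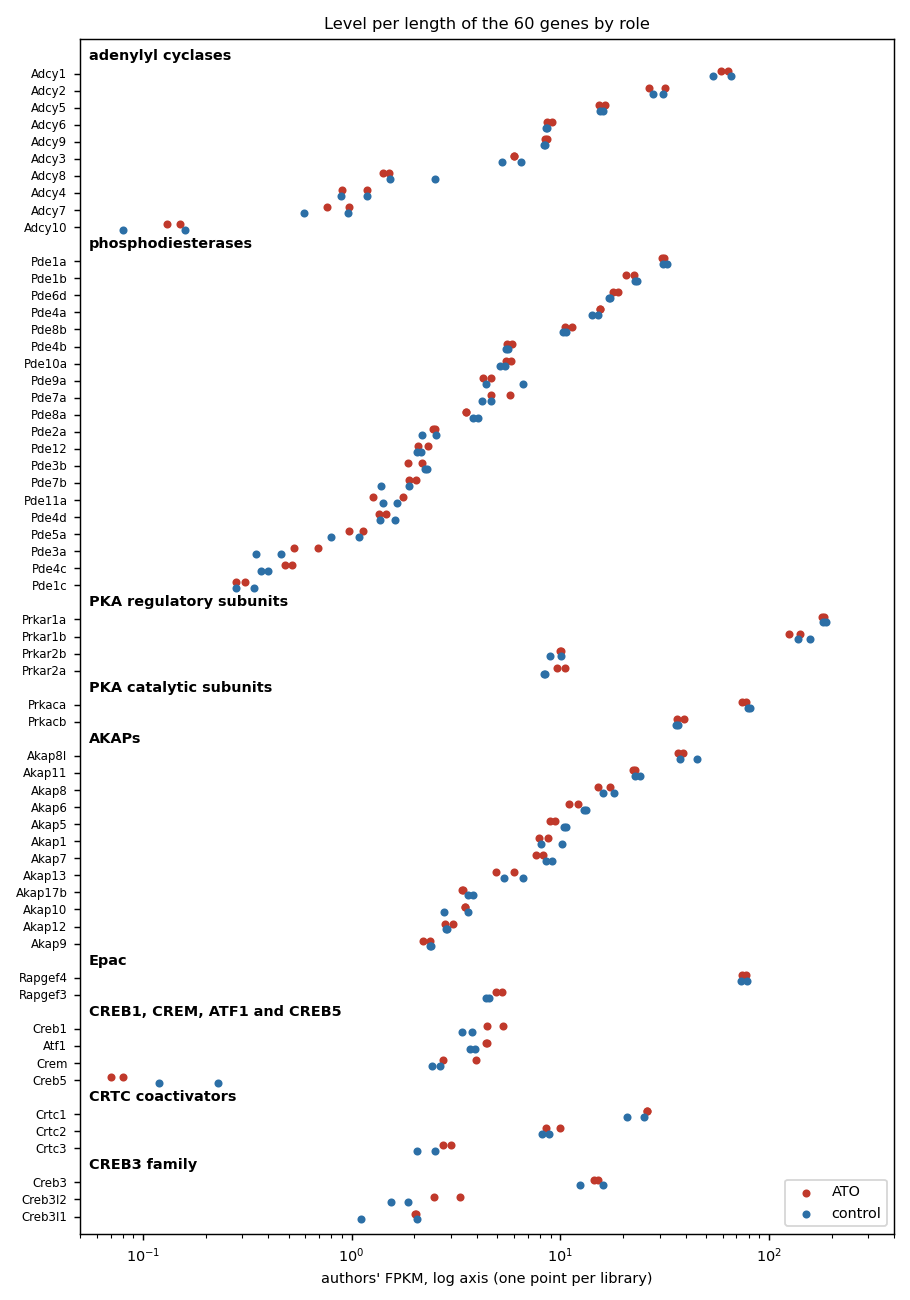
The authors' FPKM of the 60 genes on a log axis (x axis, 1 point per library, ATO above control in each row), grouped by role and ordered by mean level within a role (y axis). Levels run from below 0.1 FPKM for Creb5 to above 180 FPKM for Prkar1a, and the spread between genes of a role is wider than that between the groups for nearly every gene.

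Of the PKA genes, Prkar1a, Prkar1b, Prkaca and Prkacb were among the genes with the highest FPKM here, and no PKA gene passed. Prkar1a, a type I regulatory subunit, had 180.41 and 183.38 FPKM in ATO and 181.39 and 188.65 FPKM in controls. The groups overlapped, and its log2 fold change was -0.03 with a 95% interval from -0.19 to 0.13. Prkar1b, the neuronal type I subunit, had 125.21 and 140.46 FPKM in ATO and 137.85 and 158.39 FPKM in controls (log2 fold change -0.16 ± 0.09, SE, adjusted p = 0.354). The type II subunits Prkar2a and Prkar2b took 2.29% to 3.23% and 2.66% to 3.10% of the summed FPKM of the regulatory subunits, and Prkar2b had a log2 fold change of 0.07 ± 0.10.

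Prkar2a had the smallest p of the PKA genes. It had 66.8 and 62.1 CPM in ATO, against 54.3 and 53.5 CPM in controls. Both ATO libraries lay above both controls, by 0.26 ± 0.08 on the log2 scale (SE, adjusted p = 0.114). Of the catalytic subunits, Prkaca averaged 78.3 FPKM and Prkacb 37.0 FPKM over the 4 libraries. Prkaca had 184 and 194 CPM in ATO and 200 and 203 CPM in controls, a log2 fold change of -0.09 with a 95% interval from -0.25 to 0.07. The 95% intervals of all 4 regulatory and both catalytic genes lay within a 1.5-fold change in either direction. So did those of 10142 of all 15713 genes. Of the 3 genes of PKA inhibitor peptides 0 passed; Pkia stood at 0.19 ± 0.08 (adjusted p = 0.242), Pkig at -0.07 ± 0.09 and Pkib at -0.12 ± 0.20.

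Among the 12 AKAP genes 0 passed in the fit of all 4 libraries, and 10 had a log2 fold change below 0, against 51.0% of all genes. The count was 10 under each of the other tests and scalings tried and 9 without either control, but these reuse the same libraries. The median was -0.13. Akap5, the scaffold that holds PKA and calcineurin at the postsynaptic membrane, had 64.0 and 61.3 CPM in ATO and 71.9 and 72.5 CPM in controls. Its groups did not overlap, with a log2 fold change of -0.20 ± 0.08 (SE, adjusted p = 0.192). Akap6, an anchor at the nuclear envelope, had 179 and 165 CPM in ATO and 194 and 198 CPM in controls, with a log2 fold change of -0.19 ± 0.08 (adjusted p = 0.197).

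The most abundant AKAP by FPKM was Akap8l, a nuclear protein, with 36.9 and 38.72 FPKM in ATO and 37.59 and 45.07 FPKM in controls, which overlapped (log2 fold change -0.13 ± 0.09, adjusted p = 0.453). Akap11 averaged 23.1 FPKM and Akap8, another nuclear anchor, 16.7 FPKM, with log2 fold changes of -0.06 and -0.07. Akap1, which anchors PKA at mitochondria, Akap7, Akap13, Akap17b and the Golgi and centrosome scaffold Akap9 lay between 8.72 and 2.34 FPKM with log2 fold changes from -0.16 to -0.07. Akap10 (0.13 ± 0.13) and Akap12, the scaffold gravin (0.04 ± 0.12), were the AKAPs above 0. The 95% intervals of all 12 AKAPs lay within a 1.5-fold change, as they did for 48 of the 60 genes and 10142 of all 15713 genes. The median SE was 0.105 over the 60 genes and 0.123 over all genes.

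The Epac genes did not pass. Rapgef4, which encodes the Epac protein of the brain, made up 93.7% to 94.5% of the summed FPKM of the pair. It had 74.57 and 77.96 FPKM in ATO and 78.88 and 73.33 FPKM in controls, and its log2 fold change of -0.00 had a 95% interval from -0.17 to 0.16. Rapgef3 had 4.91 and 5.27 FPKM in ATO and 4.55 and 4.42 FPKM in controls (0.18 ± 0.10, adjusted p = 0.402). Of 11 tested genes of other effectors of cyclic nucleotides 0 passed. Popdc3, which encodes a cyclic AMP-binding membrane protein, stood at 0.58 ± 0.20 (adjusted p = 0.143).

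Creb1 (ENSMUSG00000025958) had counts of 1262 and 1026 in ATO and 775 and 703 in controls, which is 72.4 and 61.8 CPM in ATO and 52.6 and 46.6 CPM in controls. Both ATO libraries lay above both controls, and the gap between the nearest libraries was smaller than the gap between the ATO libraries. The means were 67.1 ± 7.55 CPM in ATO and 49.6 ± 4.25 CPM in controls (SD, n = 2 each). On the log2 scale the difference was 0.44 ± 0.10 (SE, adjusted p = 0.0258), with a 95% interval from 0.23 to 0.65. Per length its level was 5.31 and 4.46 FPKM in ATO and 3.79 and 3.38 FPKM in controls, in the range of Atf1.

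Both close relatives of Creb1 stood above 0 without passing. Crem, whose products include activators and the repressor ICER, had 15.96 and 23.4 CPM in ATO, against 15.7 and 14.3 CPM in controls. ATO replicate 1 lay next to the controls and ATO replicate 2 stood apart, with a log2 fold change of 0.39 ± 0.17 (SE, adjusted p = 0.233). Without ATO replicate 2 it was 0.09 (adjusted p = 0.906), and without ATO replicate 1 it was 0.64 (adjusted p = 0.0181). Counts per gene do not separate the isoforms of Crem, and 472 of its exonic bases overlap Gm6225 on the opposite strand. Atf1 had 13.5 and 13.5 CPM in ATO and 12.0 and 11.3 CPM in controls (0.22 ± 0.15, adjusted p = 0.467).

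Creb5 (ENSMUSG00000053007, chr6:53287270-53700376, plus strand) had counts of 29 and 32 in ATO and 84 and 47 in controls. At 1.66 and 1.93 CPM both ATO libraries lay below the controls at 5.70 and 3.11 CPM, and the controls differed from each other by more than the nearest libraries of the groups did. On the log2 scale the difference was -1.29 ± 0.33 (SE, adjusted p = 0.0470), with a 95% interval from -2.005 to -0.576. It was -0.79 without control replicate 1 and -1.67 without control replicate 2. Its level per length, at most 0.23 FPKM, was the lowest of the 4 genes, and is spread over an exonic length of 25021 bases.

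**Figure D3:**
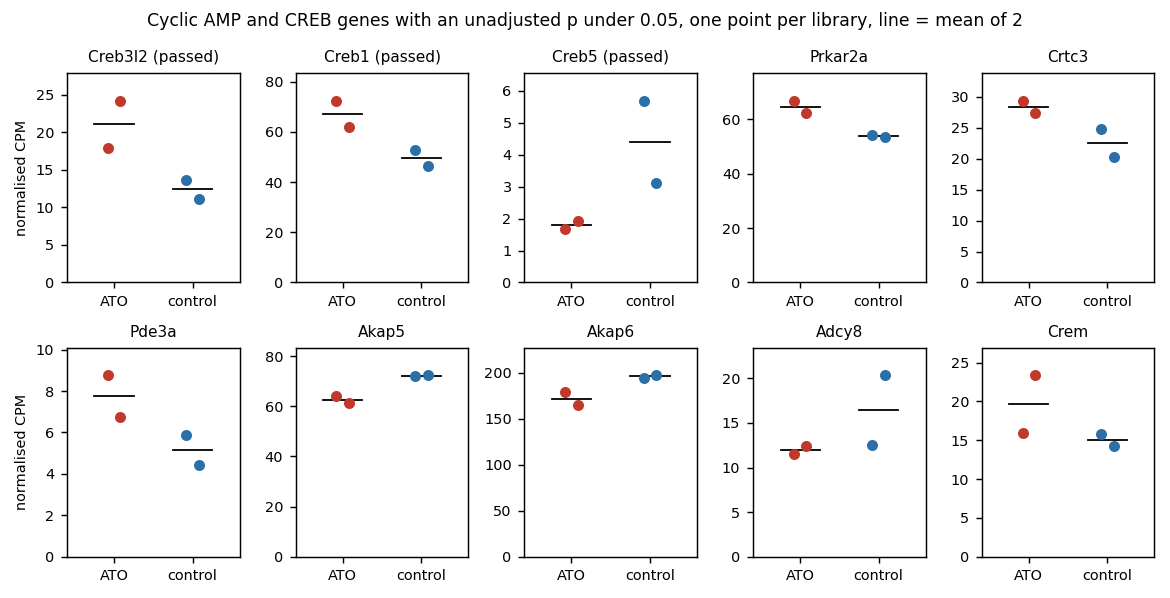
Normalised CPM (y axis, from 0) in each library of the 10 genes with an unadjusted p under 0.05, ATO left and control right; each point is 1 library and the line is the mean of 2. The groups do not overlap for these 10 genes, which were picked by their p in these same libraries, nor for 48.1% of all genes tested. ATO replicate 2 stands apart for Crem and control replicate 2 for Adcy8.

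The CRTC coactivators, which enter the nucleus when dephosphorylated and bind CREB, had log2 fold changes above 0 for all 3 genes, and 0 passed. Of all 15713 genes 7701 stood above 0. The sign held under every alternative tried, but these reuse the same 4 libraries. The median was 0.17, and 0.05 without control replicate 2. Crtc3 had 29.4 and 27.3 CPM in ATO, against 24.8 and 20.3 CPM in controls. Both ATO libraries were higher, with a log2 fold change of 0.33 ± 0.12 (SE, adjusted p = 0.159). Crtc1, the CRTC with the highest FPKM here, had 26.19 and 25.96 FPKM in ATO and 25.09 and 21.0 FPKM in controls. Its log2 fold change was 0.17 ± 0.09 (adjusted p = 0.324), 0.31 without control replicate 1 and 0.04 without control replicate 2. Crtc2, known best from liver, stood at 0.11 ± 0.10.

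Of 18 genes listed with the CREB kinases, coactivators and CRTC kinases 1 rose, and it belongs to none of these classes. Ppp1r1b, which encodes the PKA-regulated phosphatase inhibitor DARPP-32, had 82.0 ± 7.16 CPM in ATO and 59.5 ± 5.48 CPM in controls, a log2 fold change of 0.46 ± 0.09 (adjusted p = 0.0136; 0.0637 without ATO replicate 2 and 0.0722 without control replicate 1). The CRTC kinase gene Sik1 stood at 0.52 ± 0.15 (adjusted p = 0.0728) and the kinase gene Camkk1 at 0.24 ± 0.07 (adjusted p = 0.0942). Ppp1r1b also marks spiny neurons of the striatum, where the other 8 tested markers of that list did not pass.

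The CREB3 genes encode transcription factors anchored in the endoplasmic reticulum and released by cleavage in the Golgi. Creb3l2 (ENSMUSG00000038648, chr6:37327255-37442146, minus strand) had counts of 313 and 403 in ATO and 202 and 169 in controls, or 17.97 and 24.3 CPM in ATO and 13.7 and 11.2 CPM in controls. Both ATO libraries lay above both controls, and the ATO libraries differed from each other by more than the nearest libraries of the groups did. On the log2 scale the difference was 0.76 ± 0.16 (SE, adjusted p = 0.0191), with a 95% interval from 0.41 to 1.11. It was 0.53 without ATO replicate 2 and 0.96 without ATO replicate 1.

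Creb3, which had the highest FPKM of the family, had 14.46 and 15.24 FPKM in ATO and 12.45 and 16.01 FPKM in controls. The groups overlapped, with a log2 fold change of 0.05 ± 0.12 (SE, adjusted p = 0.857). Creb3l1 had 5.22 and 5.36 CPM in ATO and 2.92 and 5.36 CPM in controls (0.35 ± 0.27, adjusted p = 0.547), so control replicate 2 lay at the ATO level.

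The summed cell type markers stood beside the 3 genes as follows. Creb3l2 and the choroid plexus sum were both highest in ATO replicate 2, then in ATO replicate 1, with both controls below. Within the controls Creb3l2 was higher in replicate 1 and the sum in replicate 2, so Creb3l2 did not have the order of the sum over all 4 libraries. Of the 60 genes 1 had it, Pde4a, against 5.58% of all genes. The control sums were 250 and 316 CPM, against 3541 and 4401 CPM in ATO. Creb1 had the order of the dentate granule sum over all 4 libraries, as had Adcy9, Atf1, Crtc3, Pde10a, Pde3a and Prkar2a, 7 of the 60 genes, against 7.83% of all genes. That order was not particular to dentate granule markers. The CA3 sum had it too, at 546 and 541 CPM in ATO and 527 and 524 CPM in controls. Creb5 had the order of the CA1 sum over all 4 libraries, as had Pde8a, 2 of the 60 genes, against 5.27% of all genes. The CA1 sums of the controls, 841 and 834 CPM, were nearly equal, so their order carries little weight. The interneuron sum was, like Creb5, lowest in ATO replicate 1, but its controls stood in the opposite order. The part of these cell types in the results was not tested.

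**Figure D4:**
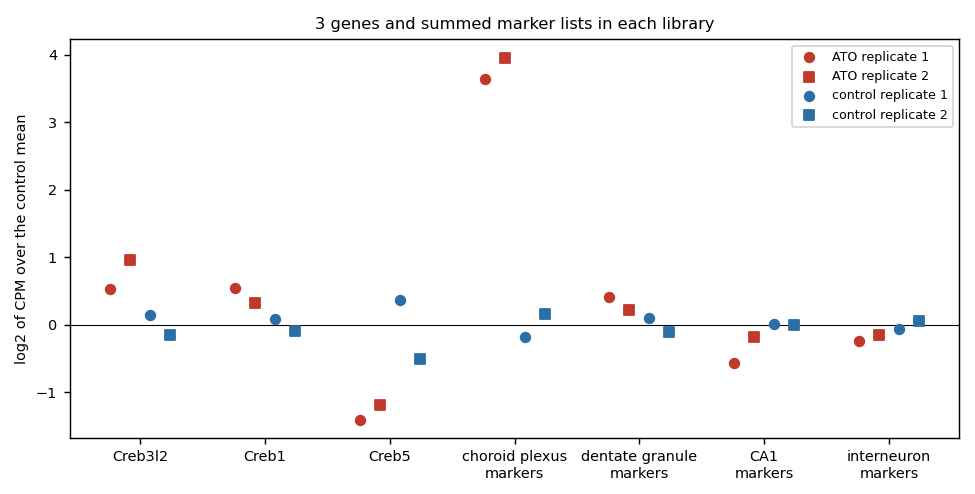
Log2 of CPM over the control mean (y axis) in each library for Creb3l2, Creb1, Creb5 and the summed markers of 4 cell types (x axis), ATO in red and control in blue. The choroid plexus sum lies between 3 and 4 above the controls in ATO, while the 3 genes stay within 1.5 of the control mean.

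**Figure D5:**
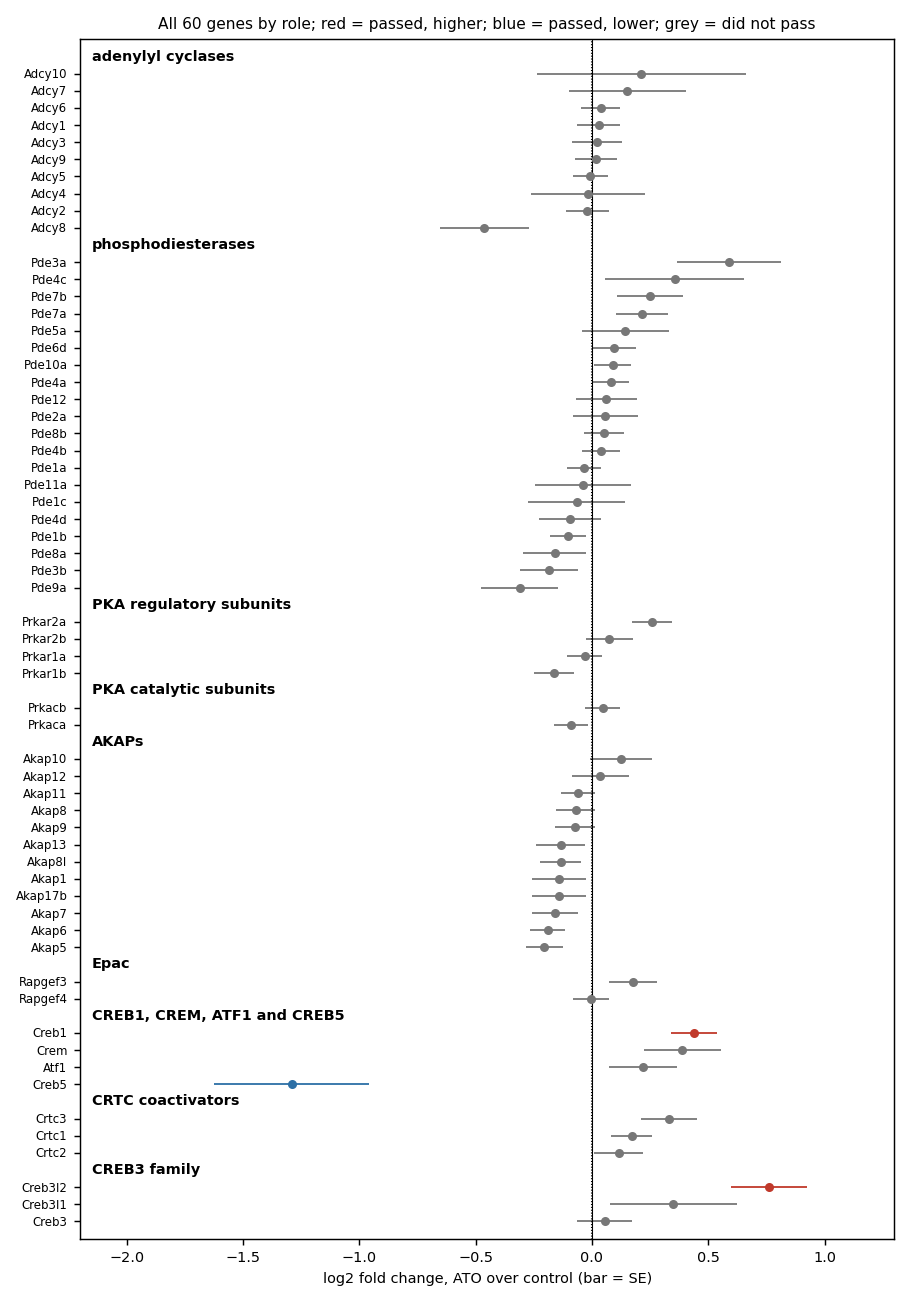
Log2 fold change of ATO over control (x axis, bar = SE) of the 60 genes by role (y axis). Creb1 and Creb3l2 (red) rose and Creb5 (blue) fell; the grey points did not pass, and 10 of the 12 AKAPs lie below 0.

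Of 28 genes known as CREB targets 1 rose and 0 fell, with a median log2 fold change of 0.05. Per2, a circadian clock gene, had 58.3 ± 2.63 CPM in ATO and 36.2 ± 0.0468 CPM in controls, a log2 fold change of 0.69 ± 0.09 (SE, adjusted p = 0.000438), and passed without each library in turn. The activity-induced transcription factor gene Npas4 stood at -0.61 ± 0.17 (adjusted p = 0.0607). The medians were -0.01 over the kinase and coactivator list, 0.08 over the other effectors and -0.07 over the PKA inhibitors. Over the 7 lists of other genes of the pathway, 111 genes were tested, of which 4 rose and 1 fell, and 1 gene, Sik1, stands in 2 lists.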

How the data were processed

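The submitters' processing notes list the build GRCm38 with limma 3.47.15, R 4.1.0, HTSeq 0.6.1, HISAT2 2.0.1, cutadapt 1.9.1 and FastQC 0.10.1, and do not give the role of each. Per the file headers the authors deposited read counts and FPKM per gene and library, and a log2 fold change, p-value and adjusted p-value of ATO over control. Every gene of the table exceeds 1 CPM in 2 or more libraries. The FPKM match the exonic length of all annotated transcripts together, so genes with long annotations read low. They were used to compare levels between genes and to show values per library of some genes in both groups. The tests and log2 fold changes used the counts, and counts of genes whose groups did not overlap used the normalised CPM. Whether counting used strand is not given, so reads of the 15 genes with exons overlapping another gene on the opposite strand (Crem, Pde3a and Rapgef4 among them) cannot be told apart from that gene's; 4 overlap a gene on their own strand, Creb5 an snRNA.

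The quasi-likelihood test of edgeR 4.0.16 (R 4.3.3) was run on the counts with no covariate, after TMM scaling (factors 0.994 to 1.01) and filterByExpr, which removed 0 genes, with Benjamini-Hochberg adjustment over 15713 genes at 0.05. The SE is the log2 fold change over the square root of F, and 95% intervals use the fit's degrees of freedom. Alternatives were DESeq2 1.42.0, limma-voom (limma 3.58.1), other scalings and filters, the replicate number as a block, and leaving out each library. Counts of 15713 genes were simulated with the means and dispersions of this comparison. Changes were given only to genes with a mean of at least 5 CPM, so recovery at levels like that of Creb5 was not simulated. Among the changed genes edgeR recovered 77.6% of those changed 1.5-fold and all of those changed 2-fold. Of its 202 calls 17 were false. DESeq2 recovered 62.7% at 1.5-fold, with 7 of 179 calls false. The 60 genes, the 7 pathway lists and the 14 marker lists were chosen with earlier results of these data known. Full values are given for genes with an unadjusted p under 0.05 and the gene with the highest FPKM of each role, and for other pathway genes those that passed and up to 2 more per list, of which 1 is not reported here. Positions come from GENCODE vM21 and promoters from RefSeq, both on GRCm38.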

Additional observations from a re-analysis of the deposited data

How the results depend on the processing

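Over all genes 451 were higher and 135 lower. Calls fell to 252 higher and 64 lower in DESeq2, rose to 890 and 476 under a replicate block, and ranged from 180 to 443 higher and 42 to 168 lower when 1 library was left out (180 and 42 without control replicate 2, 300 and 99 without ATO replicate 1). Among the 60 genes, 2 higher and 1 lower, the lower count was 0 in DESeq2, limma-voom, with library size only and with a mean of at least 5 CPM, where Creb5 was not tested. It was 0 to 1 with 1 library left out, and the higher count 0 to 2. With the replicate block 3 were higher, Prkar2a added (adjusted p = 0.0445), and 1 lower. The replicate numbers are only shared labels: over 12086 genes the deviations of same-numbered libraries from their group means had a correlation of 0.208, and with 2 pairs this does not show pairing. For 24 named genes and 11 alternatives, 227 of 262 values kept their direction and side of the threshold, 26 lost the call, 3 gained it and 6 changed sign, all of genes with a log2 fold change near 0: Rapgef4 with library size only (0.0029), and with 1 library left out Rapgef4 (-0.065 to 0.058, 0.038 without ATO replicate 1), Adcy1 (-0.11 to 0.18, -0.021 without ATO replicate 1) and Creb3 (-0.11 to 0.24). Without a low-count filter nothing changed, since no gene had been removed. With 2 libraries a group, differences of 1.5-fold or less can be missed, most of all at counts like those of Creb5, Adcy10 or Pde4c. The cause of these changes was not tested.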
